A study of Mus musculus with 6 samples.

Results

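Interferon-stimulated genes are the genes that cells switch on after type I or type II interferon, and 47 of them were followed here in bone-marrow-derived macrophages (BMDMs) exposed to excess salt. A gene was taken when its symbol in the authors' normalized table equalled a name on the list, and 47 of 47 were found among the 15903 genes tested. BMDMs were grown from the marrow of 3 Cx3cr1GFP mice on C57BL/6J for 7 days with the growth factor M-CSF. Cells of each mouse were either left unstimulated (control, n = 3 libraries) or given 62 mM of NaCl in excess during 24 h (NaCl, n = 3), and RNA of the adherent cells was sequenced. All 6 libraries carry the allele that places GFP in the Cx3cr1 locus, so no library shows cells without it, and the labels give no age for the mice. The comparison asks whether excess salt changed the interferon response genes of macrophages.

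As background, type I interferons such as interferon beta bind the receptor chains IFNAR1 and IFNAR2, and the kinases JAK1 and TYK2 then activate STAT proteins. With IRF9 these form the complex ISGF3, which binds the interferon-stimulated response element (ISRE). Interferon gamma acts through IFNGR1 and IFNGR2, and the factor it activates binds gamma-activated sites (GAS). Macrophages keep a low basal output of many of these genes, and their products block viral entry, translation and replication or attack vacuoles that hold bacteria.

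The reads counted on genes ranged from 4088065 in NaCl mouse 3 to 20123570 in control mouse 3, and the number of tested genes without a count was 1235 in NaCl mouse 3 against 79 to 309 in the other libraries. Macrophage markers were present in every library, with the summed level of the 8 genes between 14800 and 16900 CPM (counts scaled to the size of the library) in control and between 24200 and 29400 CPM in NaCl libraries, where Lyz2 takes the largest share. The 8 did not move together, and their median log2 fold change was -0.06. In edgeR with the mouse as a replicate block, Lyz2 (log2 fold change 0.95, adjusted p = 1.27e-05) and Csf1r (0.72, 2.98e-04) were higher. Mertk was lower (-1.01, edgeR adjusted p = 4.28e-06), and the other markers of the 8 were not called. Of the 8 T and NK cell markers, 4 (Cd3e, Gzma, Gzmb and Ncr1), which include defining genes of the cells that make interferon gamma, were at 0 counts throughout. The sum of the 8 was 1.17 to 1.44 CPM in control and 1.98 to 2.66 CPM in NaCl libraries. Klrb1c made up most of it, at 1.02 to 1.26 CPM in control and 2.08 to 2.35 CPM in NaCl libraries. Its log2 fold change was 0.94 (edgeR adjusted p = 0.254). Nkg7, Trbc1 and Cd3d had 8, 2 and 1 counts over the 6 libraries. The 6 plasmacytoid dendritic cell markers, which hold the member Bst2, summed to 364 to 409 CPM in control and 356 to 471 CPM in NaCl libraries. Irf8, Bst2 and Tcf4 made up nearly all of this sum. Siglech, Ccr9 and Ly6d had only 26, 17 and 8 counts over the 6 libraries. In RNA from whole cultures, fewer cells of a type and less RNA per cell cannot be told apart.

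Most of the interferon-stimulated genes passed the threshold in no fit. All 3 listed members of the IFIT family were among those that did with the mouse in the model. In the edgeR quasi-likelihood test without a term for the mouse, 0 of 47 were higher and 0 lower after NaCl at an adjusted p of 0.05, where 0.478% of all genes tested were called higher and 0.176% lower, and the lowest adjusted p was 0.165. An unadjusted p under 0.05 was reached by 7 members (Isg20, Usp18, Ifit1, Ifit2, Cmpk2, Ifit3 and Irgm1), each higher in NaCl, beside 12.6% of all genes in either direction. With the mouse as a replicate block, 6 of 47 were higher (4.6% of all genes) and 1 was lower (4.3% of all genes). The 6 were Usp18, Ifit1, Ifit2, Ifit3, Cmpk2 and Isg20, with fitted changes from 1.61-fold to 2.06-fold, and the lower gene was Gbp7, at 0.557 times its control level. DESeq2 called 2 members higher, Ifit1 and Usp18 (1.54% of all genes), and 0 lower (0.975%). With the block, DESeq2 called 4 higher, the 3 Ifit genes and Usp18 (2.84%), and 0 lower (2.23%).

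The remaining 40 members passed the threshold in no fit named above, with blocked log2 fold changes between -0.38 and 0.52. Over all 47, the median log2 fold change was 0.17 (quartiles 0.02 and 0.38) beside -0.01 over all genes tested (quartiles -0.24 and 0.24), with 36 values above 0 and 11 below. Within mice 1, 2 and 3, the medians were 0.19, -0.03 and 0.19, and 42, 23 and 35 of the 47 were higher in NaCl. The members of mouse 2 were thus split about evenly, while most of those of mouse 1 leaned upwards. In all 3 mice, 20 of 47 were higher in NaCl (20.1% of all genes) and 3 of 47 lower (23.4% of all genes). Groups stood apart for few members: every NaCl library lay above every control library for 4 of 47, namely Cmpk2, Isg20, Mx2 and Ifi35 (8.92% of all genes), and below for 0 of 47 (10.1%). A share of 4 in 47 is close to that of all genes.

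**Figure D1:**
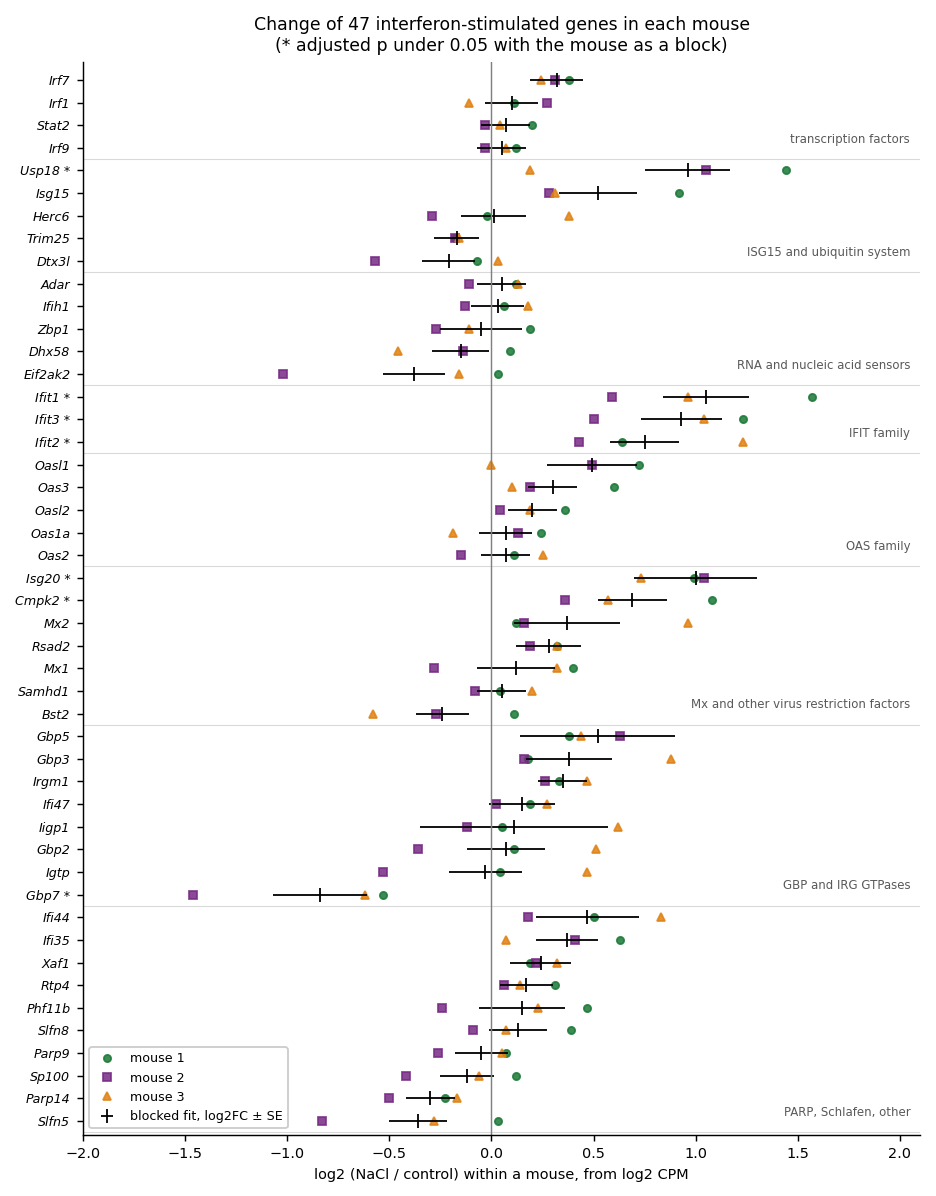
Change of each of the 47 members within each mouse, as log2 NaCl over control from log2 CPM (horizontal axis), with genes grouped by role on the vertical axis; circles, squares and triangles stand for mice 1, 2 and 3, and black bars for the log2 fold change of the blocked fit ± SE. All 3 mice lie to the right of 0 for the 3 Ifit genes, Usp18, Cmpk2 and Isg20 and to the left for Gbp7, while the medians over all members were 0.19, -0.03 and 0.19.

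The IFIT proteins bind foreign RNA and hinder its translation. All 3 listed members of this family (Ifit1, Ifit2 and Ifit3, all on chromosome 19) were higher after NaCl in the blocked fit. Ifit3b and Ifit1bl2, related genes outside the list and named after their values were seen, were not called. Their blocked log2 fold changes were 1.4 ± 0.46 and -0.04 ± 0.89 (edgeR adjusted p = 0.0535 and 0.989), both at low counts. Ifit1 had 4.66, 7.16 and 3.48 CPM in control mice 1, 2 and 3 and 14.2, 10.9 and 6.95 CPM in the NaCl cells of the same mice. NaCl was above control in each mouse, yet the NaCl value of mouse 3 lay just under the control value of mouse 2, so the groups overlap. Its log2 fold change was 1.11 ± 0.32 (SE) without the block (adjusted p = 0.185) and 1.05 ± 0.21 with it (adjusted p = 0.00155, both edgeR). Ifit2 had 16.9, 12.4 and 8.27 CPM in control and 26.6, 16.8 and 19.6 CPM in NaCl cells, with a blocked log2 fold change of 0.75 ± 0.17 (edgeR adjusted p = 0.00356, against 0.287 without the block). The change was largest in mouse 3, and only the control value of mouse 1 reached into the range of the NaCl cells. Ifit3 had 6.25, 6.79 and 2.93 CPM in control and 15, 9.70 and 6.23 CPM in NaCl cells, and its blocked log2 fold change was 0.93 ± 0.20 (edgeR adjusted p = 0.00361, against 0.298 without the block). Mouse 3 was lowest in both groups. Of the 75-base stretches of Ifit3 transcripts, 41.1% also occur in another gene, mainly Ifit3b, and reads from these map to more than 1 gene.

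Among the genes of the ISG15 and ubiquitin system, 1 of 5 was higher in the blocked fit and none lower. Usp18, which removes ISG15 from proteins and dampens signalling at IFNAR2, had 5, 7.16 and 5.85 CPM in control and 13.9, 15 and 6.71 CPM in NaCl cells. NaCl cells of mice 1 and 2 stood well above all controls, whereas in mouse 3 the value (28 counts) lay within the control range. The log2 fold change was 1.02 ± 0.29 without the block (edgeR adjusted p = 0.178) and 0.96 ± 0.21 with it (adjusted p = 0.00317). Isg15, the ubiquitin-like modifier itself, had 7.39, 11.0 and 5.95 CPM in control and 14.2, 13.3 and 7.43 CPM in NaCl cells, a blocked log2 fold change of 0.52 ± 0.19 that missed the threshold (edgeR adjusted p = 0.0858). It was the higher of the pair in every mouse, and the groups overlap. Trim25, a ubiquitin and ISG15 ligase that acts on RIG-I and the highest gene of this group, had 325, 238 and 241 CPM in control and 288, 211 and 215 CPM in NaCl cells (log2 fold change -0.17 ± 0.17, edgeR adjusted p = 0.735).

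Of the 7 Mx and other restriction factors, 2 were higher in the blocked fit. Cmpk2, a mitochondrial nucleotide kinase encoded beside Rsad2 on chromosome 12, had 11.6, 11.1 and 8.17 CPM in control and 24.8, 14.2 and 12.2 CPM in NaCl cells. All NaCl values lay above all control values, with mouse 1 the highest by far, and the blocked log2 fold change was 0.69 ± 0.17 (edgeR adjusted p = 0.0101, against 0.288 without the block). Isg20, an exonuclease that degrades viral RNA, had 1.93, 1.54 and 1.66 CPM in control and 4.02, 3.35 and 2.87 CPM in NaCl cells. The groups did not overlap and the control values were tight, but NaCl mouse 3 rests on 12 counts. The log2 fold change of Isg20 was 1.02 ± 0.28 without the block (edgeR adjusted p = 0.165) and 1.00 ± 0.30 with it (adjusted p = 0.0364), and DESeq2 with the block gave an adjusted p of 0.245. Samhd1, which degrades deoxynucleotides, was the highest of the group at 440, 289 and 298 CPM in control and 453, 274 and 342 CPM in NaCl cells (log2 fold change 0.06 ± 0.22, edgeR adjusted p = 0.945). Rsad2 (viperin), Mx1, Mx2 and the tetherin gene Bst2 were not called in any of these fits.

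The guanylate-binding proteins (GBPs) and immunity-related GTPases (IRGs) coat and break vacuoles of intracellular microbes and respond strongly to interferon gamma. Of 8, none was higher and Gbp7 was lower in the blocked fit. Gbp7 had 16.3, 5.07 and 3.78 CPM in control and 11.2, 1.72 and 2.40 CPM in NaCl cells. NaCl was below control in each mouse, but the difference between mouse 1 and the other mice was larger than that between treatments, and NaCl mouse 3 holds 10 counts. The blocked log2 fold change was -0.84 ± 0.23 (edgeR adjusted p = 0.02), against -0.62 ± 0.71 without the block (adjusted p = 0.766), and the adjusted p was 0.125 in DESeq2 with the block and 0.431 in the blocked fit of libraries thinned to equal depth. Of its 75-base stretches, 11.3% also occur in another gene. Irgm1, the highest of the group and a regulator of the other IRGs, had 45.8, 36.7 and 36.2 CPM in control and 57.8, 44.0 and 50.1 CPM in NaCl cells (log2 fold change 0.36 ± 0.16, edgeR adjusted p = 0.393). It was higher in each mouse, and the groups overlap.

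**Figure D2:**
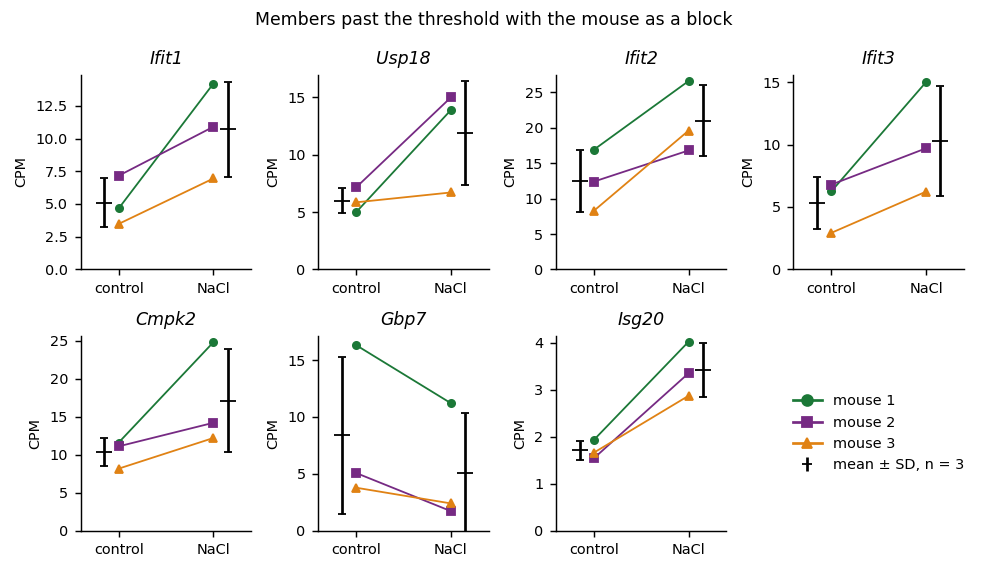
CPM (vertical axes, from 0, each gene on its own scale) of the 7 members past the threshold with the mouse as a block, in control and NaCl cells; lines join the libraries of a mouse and black bars give the mean ± SD of 3 libraries, the lower bar of Gbp7 in NaCl ending at the axis. Every line rises for Ifit1, Usp18, Ifit2, Ifit3, Cmpk2 and Isg20, by little for Usp18 in mouse 3 (5.85 to 6.71 CPM), and every line falls for Gbp7.

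No member of the other roles was called in any of these fits. Of the 4 transcription factors, Stat2, a subunit of ISGF3, had 89.8, 81.6 and 74.1 CPM in control and 103, 80.0 and 76.2 CPM in NaCl cells (log2 fold change 0.08 ± 0.15, edgeR adjusted p = 0.869), and the log2 fold changes of Irf1, Irf7 and Irf9 lay between 0.06 and 0.35. Among the 5 nucleic acid sensors and effectors, Adar, which edits adenosine in double-stranded RNA, had 77.2, 74.4 and 70.3 CPM in control and 84.0, 68.9 and 76.9 CPM in NaCl cells (log2 fold change 0.05 ± 0.13, edgeR adjusted p = 0.912). The 2 groups cover much the same range for both genes. Of the 5 OAS genes, whose products make oligoadenylates that activate RNase L, Oas3 was highest by CPM, with 80.0, 119 and 103 CPM in control and 121, 136 and 111 CPM in NaCl cells (log2 fold change 0.28 ± 0.16, edgeR adjusted p = 0.52). It was higher in each mouse with overlap between the groups. The last 10 members, with PARP, nuclear body and Schlafen genes, ran from -0.30 to 0.57, and Slfn5, the highest of them by mean CPM over the 6 libraries, had 152, 140 and 120 CPM in control and 156, 79.1 and 98.9 CPM in NaCl cells (log2 fold change -0.30 ± 0.23, edgeR adjusted p = 0.634). It was lower in mice 2 and 3 and about level in mouse 1.

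The members differed widely in level. Per kb of exonic sequence, control levels ran from 132 ± 30.2 CPM per kb (SD, n = 3) for Bst2, through 46.6 ± 8.6 for Trim25 and 37.4 ± 9.25 for Samhd1, down to 0.213 ± 0.201 for Gbp5 and 0.192 ± 0.145 for Iigp1. These SDs are between libraries and do not compare 2 genes measured in the same library. Differences in level between neighbouring genes of this order were not tested. The 6 genes that were higher in the blocked fit sat in the lower part of this order, with control levels between 0.921 CPM per kb (Isg20) and 3.19 CPM per kb (Ifit2). None of the 47 had a library without a count, and 2 (Gbp5 and Iigp1) had a library under 10 counts.

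Promoters show which members carry the letters bound by ISGF3 and the interferon regulatory factors. RefSeq windows of GRCm38.p6, from 250 bases before to 50 after a gene start, were matched for 37 of the 47 members (47 windows). The ISRE letters (GAAA, any 2 bases, then GAAA), on either strand, were in 20 of these windows (42.55%) beside 3.12% of the 13734 windows of other genes tested and 3.44% of all 32851 windows. The GAS letters TTCNNNGAA, which read the same on both strands, were in 12 windows (25.53%) beside 6.84% and 8.3%, and both motifs overlapped in 1 member window. Of the 7 genes called in the blocked fit, Ifit1, Ifit3 and Gbp7 held the ISRE letters, while the windows of Ifit2, Cmpk2 and Isg20 did not, and Usp18 was not matched. Parts of 6 upstream windows follow, 5′ to 3′ on the strand of the gene, with ISRE matches in capitals. They belong to the members with the lowest blocked p among those whose window holds the ISRE letters, and set Ifit1 and Ifit3, which were higher, beside Gbp7, which was lower, and 3 members that were not called.
Ifit1 (chr19:34640760-34640838, plus strand): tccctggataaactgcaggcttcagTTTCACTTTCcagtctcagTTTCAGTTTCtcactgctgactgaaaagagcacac
Ifit3 (chr19:34583348-34583441, plus strand): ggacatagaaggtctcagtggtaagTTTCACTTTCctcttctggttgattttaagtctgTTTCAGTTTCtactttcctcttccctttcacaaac
Gbp7 (chr3:142530258-142530317, plus strand): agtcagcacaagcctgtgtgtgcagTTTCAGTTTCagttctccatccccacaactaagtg
Irgm1 (chr11:48871421-48871475, minus strand): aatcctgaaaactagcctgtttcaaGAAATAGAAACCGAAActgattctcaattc
Isg15 (chr4:156200850-156200921, minus strand): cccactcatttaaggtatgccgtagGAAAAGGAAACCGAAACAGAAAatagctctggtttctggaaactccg
Slfn5 (chr11:82951922-82951981, plus strand): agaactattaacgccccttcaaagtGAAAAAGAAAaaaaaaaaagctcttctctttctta

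Ifit1 and Ifit3 each hold 2 separate matches, those of Ifit1 between 75 and 104 bases before the start. The matches of Irgm1 and Isg15 overlap one another in 1 run, between 14 and 30 bases and between 56 and 78 bases before the start. Gbp7 has 1 match, 43 to 53 bases before the start, so the letters were found in genes that were higher, lower and not called. A match is a description of the letters and not evidence that a factor was bound.

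The interferon ligands listed were at or near the limit of detection. All 13 ligand genes listed were found in the table of raw counts, and 12 of them, Ifnb1 and Ifng among them, were at 0 counts in each of the 6 libraries, which allows levels of up to 0.149 CPM in the deepest library and 0.734 CPM in the shallowest (3 counts). The other ligand, Ifnk, named after its values were seen, had 1 count in 1 control library. Transcripts of the listed ligands thus gave at most 1 unique read in a library after 24 h, and earlier times were not measured. Sequence that ligand genes share with one another, which lowers unique counts, was not examined.

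Of 106 other genes of the interferon pathway, edgeR called 1 higher (Ifit1bl1) and 1 lower (Cd274), with the same 0.478% and 0.176% of all genes as background. In either direction, 15 of 106 reached an unadjusted p under 0.05 in edgeR, a share near that of all genes (12.6%). With the block, 5 of 106 were higher and 7 of 106 lower, beside 4.6% and 4.3% of all genes, and the share of higher genes was close to that of all genes. The median log2 fold change without the block was 0.06. Ifnar1, a signalling chain of the type I receptor, had 206, 211 and 206 CPM in control and 147, 102 and 117 CPM in NaCl cells. All NaCl values lay far below the narrow control range. The log2 fold change was -0.77 ± 0.15 without the block (edgeR adjusted p = 0.0579) and -0.78 ± 0.12 with it (adjusted p = 0.00011), and DESeq2 gave an adjusted p of 0.00139. Its partner Ifnar2 had 59.0, 47.6 and 55.3 CPM in control and 53.5, 34.5 and 43.6 CPM in NaCl cells, a log2 fold change of -0.30 ± 0.18 (edgeR adjusted p = 0.534). It was lower in each mouse, but the groups overlap.

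The chains of the interferon gamma receptor, Ifngr1 and Ifngr2, had log2 fold changes of -0.09 ± 0.19 and -0.05 ± 0.18 (edgeR adjusted p = 0.888 and 0.945). Both pairs of groups overlap. Cd274 (PD-L1), a checkpoint ligand that interferon gamma raises, had 34.6, 37.3 and 39.5 CPM in control and 21.3, 21.5 and 20.6 CPM in NaCl cells. The groups lie far apart relative to their spread. Its log2 fold change was -0.81 ± 0.14 (edgeR adjusted p = 0.0384), and 9.2% of its 75-base stretches also occur in another gene. Ifit1bl1, a gene of the Ifit cluster on chromosome 19, had 0.569, 0.181 and 0.151 CPM in control and 2.57, 1.72 and 1.68 CPM in NaCl cells. It was higher in every NaCl library (log2 fold change 2.88 ± 0.53, edgeR adjusted p = 0.048), from 2 to 5 counts in control and 7 to 23 counts in NaCl libraries, so the size of the change is imprecise.

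**Figure D3:**
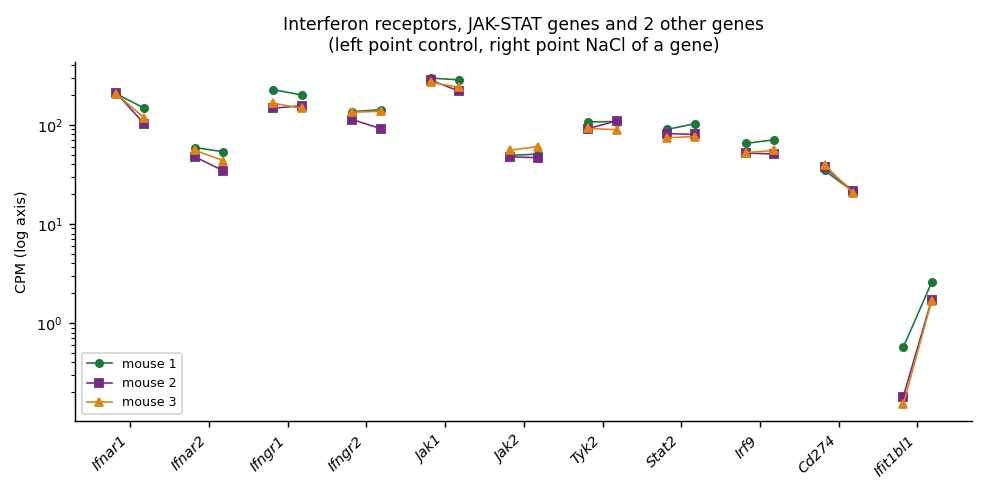
CPM (log axis) of interferon receptor chains, JAK-STAT genes, Cd274 and Ifit1bl1, with the control library on the left and the NaCl library on the right of each gene and lines joining the libraries of a mouse. Ifnar1 falls in each mouse from 206 to 211 CPM down to 102 to 147 CPM and Cd274 to 20.6 to 21.5 CPM, Ifit1bl1 rises, and the lines of the Ifngr genes cross or stay near level.

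The members also differed between mice, whichever the treatment. In a test of the mouse in the blocked edgeR fit, chosen after the values had been seen, 21 of 47 members passed the threshold, against 8.89% of all genes, and 17 of the 21 were highest in mouse 1 and 0 were lowest there, while 671 of the 1413 genes called overall (47.5%) were highest in mouse 1. Both libraries of mouse 1 lay above the other 4 for 25 of 47 members (13.8% of all genes). The members' median log2 level differed from mouse 1 by -0.34 in mouse 2 and -0.51 in mouse 3, beside -0.00 and -0.01 over all genes. Thinning all libraries to equal depth left 13 members past the threshold (7.49% of the 13704 genes), and the DESeq2 likelihood ratio test gave 11 (5.06%).

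Of the 8 GBP and IRG genes, 7 had both libraries of mouse 1 above the other 4. Gbp5, named with Gbp7 after the values were seen, had 2.96 CPM in the control and 3.91 CPM in the NaCl cells of mouse 1, and 0.634 to 1.09 CPM in the other 4 libraries. For Gbp7, mouse 2 differed from mouse 1 by -2.07 and mouse 3 by -2.21 on the log2 scale (edgeR adjusted p of the mouse = 6.75e-07). The sum of the 6 monocyte markers was also highest in mouse 1, where control and NaCl cells had 293 and 339 CPM against 100 to 167 CPM in the other libraries. Of these, Ccr2 gave 211 and 258 CPM in mouse 1. Its part in the difference was not tested, and the mouse and the culture or library made from it cannot be told apart.

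**Figure D4:**
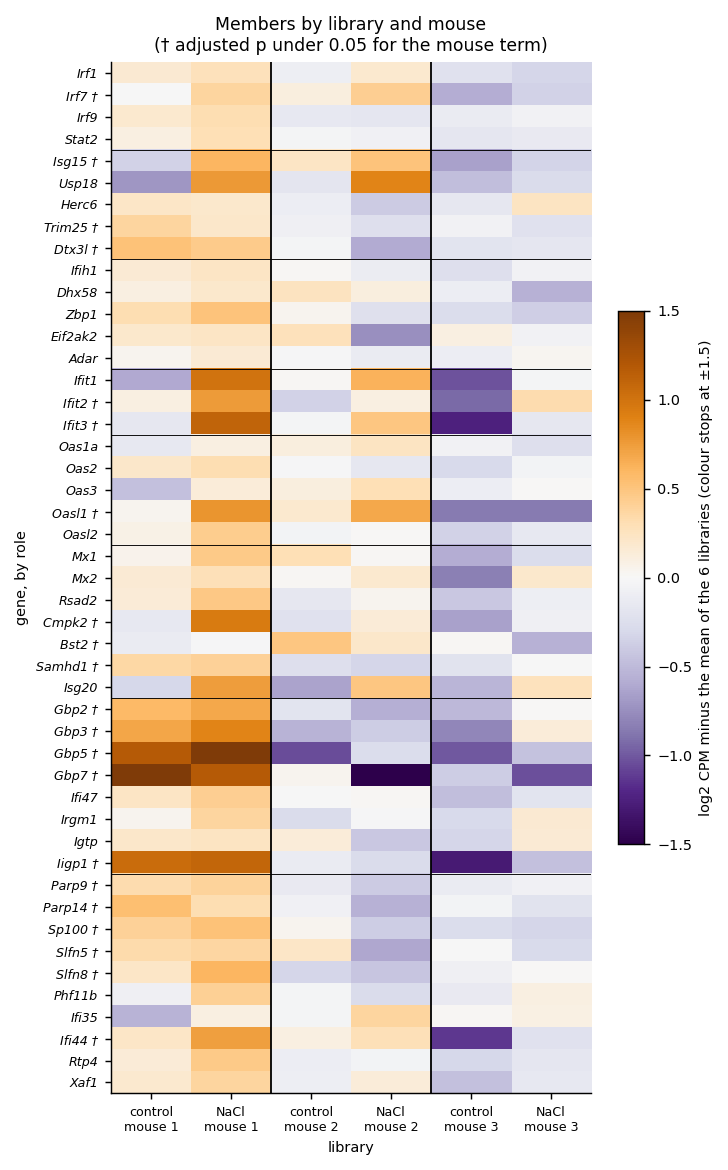
Log2 CPM of each member minus its mean over the 6 libraries (colour, ending at ±1.5), with genes by role in rows and libraries by mouse in columns; a dagger marks the 21 members past the threshold for the mouse. The columns of mouse 1 are orange for most members, most deeply for Gbp5, Gbp7 and Iigp1, while control mouse 3 is purple for most, and in mouse 1 the Ifit genes and Cmpk2 turn from purple or pale to orange with NaCl.

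Which mouse was left out changed the count of members called with the block. Without mouse 1, 1 member was higher (Ifit2, edgeR adjusted p = 0.0115), beside 3.14% of all genes, and 2 were lower (2.79%), Gbp7 and Eif2ak2, the kinase PKR. Without mouse 2, 8 members were higher (5.11% of all genes) and 0 lower in edgeR (4.46%), and Isg15, Oas3 and Irgm1 joined the 3 Ifit genes, Usp18 and Cmpk2. Without mouse 3, 5 were higher (Usp18, Ifit1, Ifit3, Cmpk2 and Isg20), beside 4.81% of all genes, and Gbp7 and Eif2ak2 were lower (3.94%). The log2 fold changes of the 3 Ifit genes, Usp18, Cmpk2 and Isg20 stayed above 0 in each of these fits, between 0.47 for Cmpk2 without mouse 1 and 1.35 for Ifit1 without mouse 2. Each such fit rests on 2 mice.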

How the data were processed

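RNA-seq libraries of BMDMs from 3 mice, control and NaCl, were analysed. Single-end reads of 75 bp were trimmed by the authors (fastp 0.20.0) and aligned (STAR 2.7.10b), and the authors deposited the count of unique reads per gene without strand (57010 genes). They also deposited a normalized signal, the count divided by a DESeq2 size factor, for the 15903 genes whose counts summed to 10 or more. Raw count over size factor gave this signal within a relative deviation of 5.0e-15, so the raw counts were used. The methods name mm10 with an annotation (GENCODE vM32) of another build, so genes are placed by chromosome only. The printed promoter windows are the exception and carry RefSeq coordinates of GRCm38.p6. Exonic lengths and shared 75-base stretches came from GENCODE M21.

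NaCl was compared with control by edgeR 4.0.16 (R 4.3.3, glmQLFit and glmQLFTest, TMM), with no other term, as in the study, and p-values were adjusted by Benjamini-Hochberg over all 15903 genes at 0.05. CPM used TMM-scaled library sizes, log2 CPM a prior count of 2, and marker sums plain library totals. Errors without a name are SE of the log2 fold change. All replicate pairs differed beyond sampling noise. Each mouse gave 1 control and 1 NaCl library per the labels, and deviations from the group means correlated at 0.43, 0.15 and 0.22 within mice 1, 2 and 3 and at -0.35 to 0.12 between mice, so results that change in a fit blocked by mouse are printed with both values. Deviations within a group sum to 0, so positive values within mice go with negative ones between mice by construction. The pairing itself rests on the labels. Alternatives were that replicate block, DESeq2 1.42.0 with and without it, scaling by RLE factors or by library totals, other filters (a minimum sum of 1, or filterByExpr), limma-voom (limma 3.58.1), thinning to 4088065 counts, and leaving out libraries or mice.

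Values in every library are given for members past the threshold in either edgeR fit and the member with the highest mean CPM of each role. Of the other pathway genes, those past the threshold and the receptor chains may be named, and 1 item is not reported here. The members and gene lists were chosen with earlier results of these data known. The fits were tested on simulated data, in which genes of low count were left unchanged and the changes set were larger than those of most members. That test does not cover smaller changes or changed genes of low count. Intervals of counting error do not cover differences between cultures.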

Additional observations from a re-analysis of the deposited data

How the results depend on the processing

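With the replicate block, 6 members were higher and 1 lower in place of 0 and 0, and 5 and 7 of the other pathway genes in place of 1 and 1. DESeq2 gave 2 members higher and 3 other genes lower, and DESeq2 with the block 4 members higher, 3 other genes higher and 4 lower. A minimum total count of 1 gave 5 members higher, 4 other genes higher and 3 lower. Thinning gave 0 other genes higher and 0 lower without the block and, with it, 5 members higher, 4 other genes higher and 6 lower. Total count scaling gave 0 other genes higher. The cause of these shifts was not tested. The share of all genes called is not given here for the minimum count of 1, thinning, total count scaling or single libraries left out. Counts from those fits therefore cannot be set against all genes. Leaving out a library or, with the block, a mouse gave 0 to 8 members higher, 0 to 2 lower, 0 to 9 other genes higher and 0 to 7 lower, and a median over the members from -0.04, without the NaCl library of mouse 1, to 0.27. The mouse term called 13 members after thinning and 11 in DESeq2, in place of 21. Of 551 log2 fold changes of 29 named genes under alternatives, 538 kept their direction and 13 did not. Ifngr2 changed to 0.00 after thinning. Without single libraries, the log2 fold change ran from -0.16 to 0.14 for Ifngr2, -0.23 to 0.12 for Ifngr1, -0.15 to 0.28 for Samhd1, -0.06 to 0.17 for Stat2 and -0.02 to 0.13 for Adar, and for Gbp7 from -2.04, without the NaCl library of mouse 1, to 0.27, without the control library of mouse 1. Without a mouse, in the blocked fit, it ran from -0.12 to 0.06 for Ifngr2 and -0.01 to 0.13 for Samhd1. Low counts in NaCl mouse 3, 10 to 29 for 5 of the 7 members called, limit their precision.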

Other observations

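Of the endosomal receptors that sense nucleic acids, Tlr7 and Tlr9 were higher in the blocked edgeR fit and Tlr3 was not called. Tlr7, a receptor for single-stranded RNA, had 148, 112 and 101 CPM in control mice 1, 2 and 3 and 256, 127 and 201 CPM in NaCl cells, a blocked log2 fold change of 0.65 ± 0.13 (SE, adjusted p = 0.00183, against 0.279 without the block). Tlr9, a receptor for unmethylated DNA, had 20.4, 9.60 and 7.82 CPM in control and 33.6, 23.1 and 15.8 CPM in NaCl cells, a blocked log2 fold change of 0.99 ± 0.16 (edgeR adjusted p = 0.000118, against 0.305 without the block). Both were higher in each mouse, and the groups overlap. Tlr3, a receptor for double-stranded RNA named after its values were seen, was lower in each mouse, with a blocked log2 fold change of -0.42 ± 0.17 (edgeR adjusted p = 0.133).

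Of the 2 negative regulators called with the block, Ptpn1, a phosphatase that acts on JAK kinases, was lower, from 244, 231 and 245 CPM to 181, 156 and 146 CPM (log2 fold change -0.58 ± 0.12, edgeR adjusted p = 0.00168, against 0.0921 without the block). Socs3, a feedback inhibitor of cytokine signalling, had 26, 4 and 24 counts in control and 45, 28 and 8 counts in NaCl libraries of mice 1, 2 and 3. Its blocked log2 fold change was 1.18 ± 0.36 (edgeR adjusted p = 0.0379), the change was largest in mouse 2, and the call was lost without the block (0.453), in DESeq2 with the block (0.168) and in the blocked fit after thinning, where the log2 fold change was 0.65 (adjusted p = 0.396).

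Other interferon-induced genes went in both directions with the block, and none of the following was called without it. Uba7, the activating enzyme for ISG15, was higher (blocked log2 fold change 0.45 ± 0.13, edgeR adjusted p = 0.0224, against 0.37 without the block). Ifi27l2a was lower (-0.59 ± 0.13, edgeR adjusted p = 0.00479, against 0.643). Lower with the block in edgeR but not called in DESeq2 with the block were Ifi204 (-0.53 ± 0.15, adjusted p = 0.0191, against 0.395 without the block and 0.0691 in DESeq2), Ifi211 (-0.76 ± 0.19, 0.00994, against 0.299 and 0.0751) and Trim14 (-0.51 ± 0.15, 0.0264, against 0.393 and 0.121). Of the 75-base stretches, 63.6% for Ifi211, a p200 family gene like Ifi204, and 31.9% for Trim14 occur in another gene.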
